A study of Saccharomyces cerevisiae with 21 samples.

Results

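The ribosomal DNA (rDNA) region of budding yeast chromosome XII (chrXII) was described here as it appears in maps of ribonucleotides embedded in the genome. Members were all positions, counted per strand, between 450 and 491 kb on the sacCer2 build that had a value in any library. There were 1544 members among 6633594 positions in all. Of them, 174 lay in the pair of reference rDNA repeats (451.6 to 468.9 kb) and 1370 in the flanks, which are the rest of the region. Beyond having a value, members were chosen by position, with earlier results of these data known.

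Ribonucleotides were mapped by ribose-seq, which reads the base and strand of single ribonucleotides, in haploid strain BY4742 (mating type alpha, S288C background) grown to stationary phase. The 17 libraries were 5 of rnh203-K46W, 3 of rnh201-G42S, 3 of rnh201-null and 6 of wild type (WT). The first and second carry yeast versions of mutations found in Aicardi-Goutières syndrome. One label field of the K46W samples names rnh201, while titles and design text name rnh203, which was used. The deposited value is a normalized enrichment factor, a ratio whose mean is about 1 per base of nuclear DNA, and a position without a value was counted as 0.

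RNase H2 nicks DNA at embedded ribonucleotides and starts their removal. Rnh201 is its catalytic subunit, Rnh203 an accessory subunit, and cells without Rnh201 keep the ribonucleotides that polymerases insert. In living yeast the rDNA is a long tandem array of near-identical repeats, of which the reference keeps a pair. Each repeat holds a large ribosomal RNA gene read by RNA polymerase I and, in the spacer beside it, the small 5S gene read by RNA polymerase III. The spacer also carries a replication origin and a fork barrier that stops forks moving against polymerase I. The order of genes in the R64 assembly is RDN37-1, RDN5-1, RDN37-2 and RDN5-2. RDN37 is the large precursor that yields the 25S, 5.8S and 18S rRNAs, and RDN5 is the 5S gene. After them come ASP3-1, RDN5-3, ASP3-2, RDN5-4, ASP3-3, RDN5-5, ASP3-4 and RDN5-6, where ASP3 encodes a cell-wall asparaginase. No annotation of sacCer2 was used here, so none of the stretches described is assigned to a gene.

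Depth differed widely between libraries. Recovered nuclear reads numbered 7264 to 1851770 in rnh203-K46W, 976237 to 4104939 in rnh201-G42S, 1435 to 2138874 in rnh201-null and 770 to 38576 in WT. The 3 libraries with no value at all in the region, rnh201-null replicate 1 and WT replicates 1 and 2, were the shallowest of all, with 1435, 1059 and 770 nuclear reads. Intervals drawn from reads cover counting error only. No label says which libraries came from separate cultures, so the tests measure only the spread between these libraries. Library numbers in the titles were in the 300s for all rnh203-K46W libraries and in the 100s or 200s for all WT libraries. What these library series stand for is not given in the labels. No series held both genotypes, so the tests of rnh203-K46W against WT cannot tell genotype from series. Clustering by mitochondrial profile, cut so as to give a pair of sets, split the libraries into sets A and B, which cross the genotypes. The mean Spearman correlation was 0.636 over 66 pairs within a set and 0.237 over 70 pairs between sets. The sets were made from these same correlations, so this gap is no evidence that the sets are distinct. DNA had been cut with up to 3 sets of restriction enzymes, and which library received which is not given in the labels, so their part in the differences between replicates was not tested.

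Values covered little of the region. Only 1.88% of the 82002 position-strand slots had a value in any library, against 26.8% in the rest of chrXII. The members lay in 4 stretches, and the long spaces between them were empty in every library. The left flank (XII:450001-451417, 1417 bp) held 592 members, 284 on the plus strand and 308 on the minus strand. Next came 8305 bp without a value (XII:451418-459722). The inter-repeat stretch (XII:459723-460688, 966 bp) held all 174 members of the repeats, 113 on the plus strand and 61 on the minus strand.

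Beyond it, 28641 bp (XII:460689-489329) had no value. An inner block of the right edge (XII:489330-489927, 598 bp) then held 527 members, 286 plus and 241 minus. After 502 empty bases (XII:489928-490429), an outer block (XII:490430-490993, 564 bp) held 251 members, 113 of them on the plus strand. The inner block was the most filled, with 44.1% of its slots, whereas the outer block had 22.3%, the left flank 20.9% and the inter-repeat stretch 9.01%. In the rest of chrXII the longest space without a value was 5437 bp, and 15 spaces exceeded 1000 bp. How the authors treated reads that match several places is not given in the sources used here, and its part in the empty spaces was not tested.

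**Figure D1:**
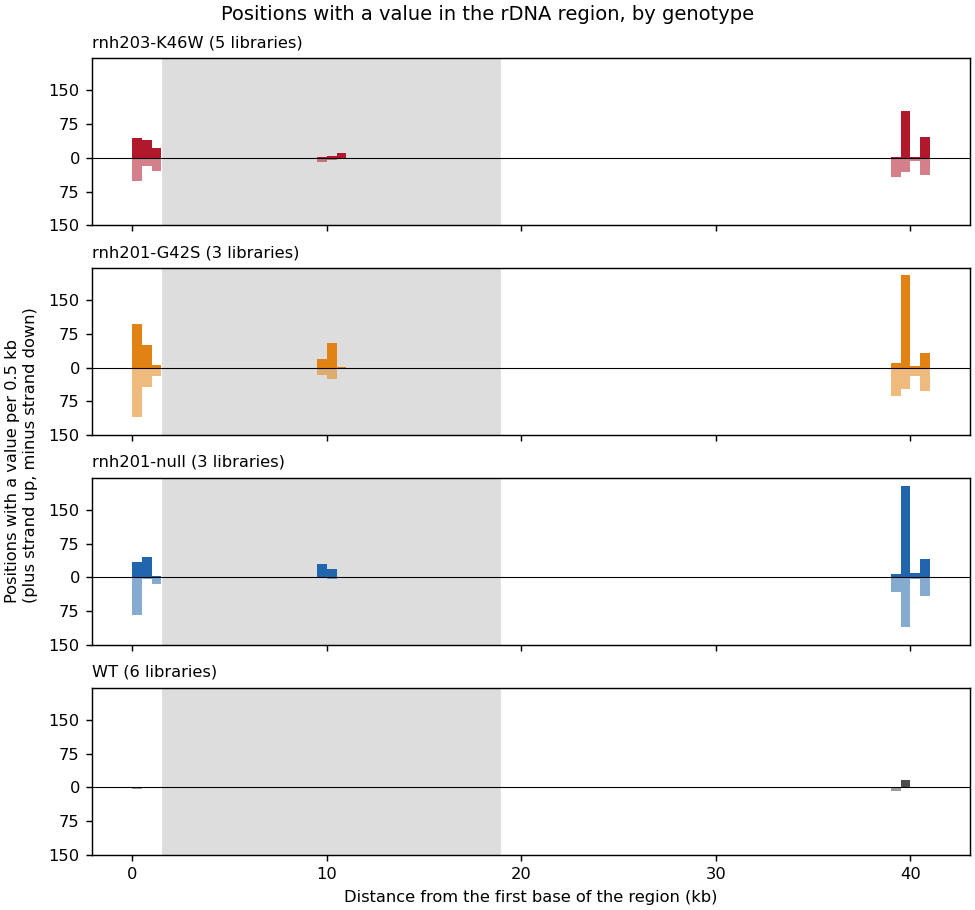
Number of positions with a value per 0.5 kb (vertical axis, plus strand up, minus strand down) against the distance from the first base of the region in kb (horizontal axis), with 1 panel per genotype and the reference repeats in grey. Members sit in the left flank, in 1 short stretch within the repeats and at the right edge, and WT has 35 members, none in the repeats.

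Most members were seen once. Of the 1544 members, 1015 (65.7%) had a value in exactly 1 library, and 11 (0.712%) had a value in all 4 genotypes. The same shares were 71.9% and 0.0532% of the 552706 positions in the rest of chrXII and 70.2% and 0.442% of the whole table. The whole table includes mitochondrial DNA, and 6492015 of its 6633594 positions are nuclear. All 11 lay in the inner block. The genotypes contributed 509 members in rnh203-K46W, 878 in rnh201-G42S, 688 in rnh201-null and 35 in WT. No member was seen in more than 1 WT library, whereas 52 recurred between rnh203-K46W libraries, 201 between rnh201-G42S libraries and 67 between rnh201-null libraries. Depth differed with genotype, and their parts in these counts cannot be told apart. Recurrence within a genotype was not counted over the rest of chrXII. These counts, and those by stretch below, therefore have no background to be read against.

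The inter-repeat stretch stood out by the amount of DNA behind its values. The enrichment factor behaved as a library constant times reads over a whole-number DNA depth, so the depth of the DNA sample of each genotype could be recovered. Median DNA depth there was 12045 reads over 31 positions in rnh203-K46W, 15796 over 112 positions in rnh201-G42S and 13847 over 54 positions in rnh201-null. The same medians in the rest of chrXII were 155, 122 and 161, so the stretch had 77.7, 129 and 86.0 times the depth.

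The positions behind these medians differed between genotypes. The depth had only 1 whole-number solution at 17 of 31, 75 of 112 and 35 of 54 positions, and several at the others, where the one nearest to neighbouring positions was taken. At the 11 positions with only 1 solution in both rnh201-G42S and rnh201-null, the rnh201-G42S depth was 0.970 times that of rnh201-null (median, range 0.912 to 1.02). The other 2 pairs of genotypes shared 2 positions or fewer. One DNA sample per genotype gives no replicate check. Scaled to the nuclear median of each genotype, the medians at those 11 positions were 93.7 in rnh201-G42S and 89.6 in rnh201-null. The larger gap in the fold over the rest of chrXII goes with a chrXII median that was 0.753 of the nuclear median in rnh201-G42S, 0.947 in rnh201-null, 0.891 in rnh203-K46W and 0.937 in WT.

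DNA depth in the other 3 stretches was that of single-copy DNA. Their medians were between 0.863 and 1.14 times the median of the rest of chrXII in every genotype. Right beside the 502 empty bases the depth was higher at single positions. It reached 351 in rnh203-K46W at position 489925 and 363 in rnh201-null at position 489927, and on the far side 329 in rnh201-G42S at position 490437 and 289 in rnh201-null at position 490440.

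**Figure D2:**
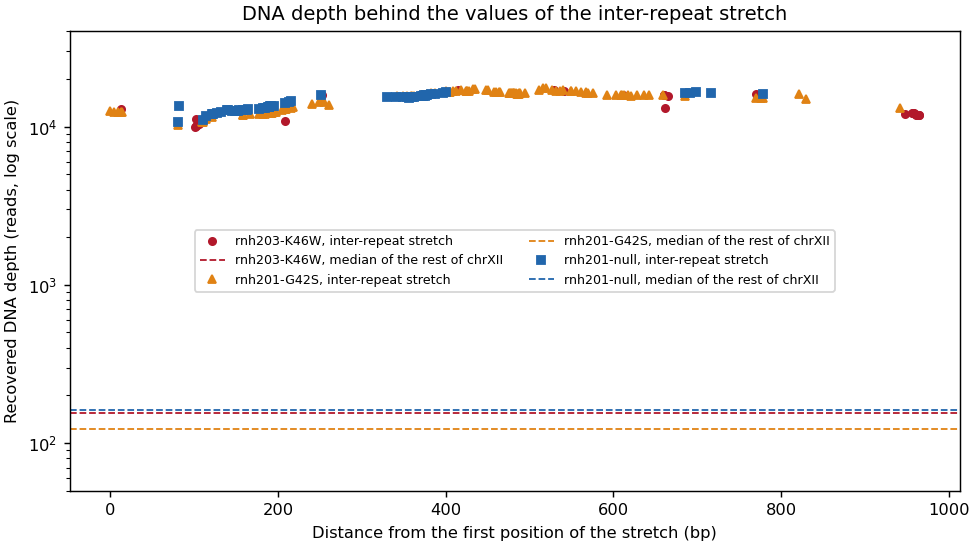
Recovered DNA depth in reads on a log scale (vertical axis) at each position with a value in the inter-repeat stretch, against the distance from its first position in bp (horizontal axis). Points are rnh203-K46W, rnh201-G42S and rnh201-null positions, and dashed lines are the medians of the rest of chrXII at 155, 122 and 161. WT has no value there.

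The values of the stretch are those of well-filled positions only. Anywhere in nuclear DNA, no value implied more DNA depth per ribonucleotide read than 383 in rnh203-K46W, 349 in rnh201-G42S, 371 in rnh201-null and 423 in WT. At single-copy depth 1 read is enough under such a limit. In the inter-repeat stretch the highest depth per read was 376, 349 and 369 in the 3 mutants, and the fewest reads at a listed position were 27, 31 and 32. The median reads per value were 66.5, 67 and 64. Whether the authors set such a limit is not given in the sources used here. Sums over the repeats hold listed positions only. A library with few reads, as all 6 of WT, may thus be at 0 there at levels that a deeper library would list.

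Per base, the inter-repeat stretch stayed at or below the rest of chrXII in every library. Its fold over the rest of chrXII was 0, 0, 0.978, 0.176 and 0.823 in rnh203-K46W replicates 1 to 5. It was 0.272, 0.265 and 0.171 in rnh201-G42S, 0, 0.131 and 0.157 in rnh201-null, and 0 in all 6 WT libraries. The rnh201-G42S libraries were close to each other, and the rnh203-K46W libraries were far apart. Listed positions reached lower enrichment factors in deeper libraries. The lowest in the stretch was 27.4 in rnh203-K46W replicate 3, with 249403 nuclear reads, and 1.33 in rnh201-G42S replicate 3, with 4104939. The folds of the mutants thus also hold different parts of the signal, and how much this adds to their differences was not tested.

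One position held most of the signal of the stretch in 2 of the rnh203-K46W libraries. At XII:460385 on the plus strand, chosen after its values were seen, replicates 3, 4 and 5 had 1581, 582 and 2609 reads at a DNA depth of 13113. Its enrichment factors were 1004, 49.9 and 722, which was 90.6%, 25.7% and 77.0% of the signal in the stretch. Replicates 1 and 2 and all libraries of the other 3 genotypes had no value there. The rnh203-K46W DNA depth at XII:460385 was lower than nearby, where it was 15876 at position 460384 and 15563 at position 460388. The reason for this dip was not tested. By the rule for naming positions (the 3 highest means among those in all but 1 of the 5 libraries), no position in the repeats qualified in rnh203-K46W.

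In rnh201-G42S, 27 positions of the stretch recurred in at least 2 of 3 libraries and 7 in all 3. The 3 with the highest means lay close together on the plus strand. XII:460072 had enrichment factors of 21.5, 13.9 and 4.29 in the 3 rnh201-G42S libraries, from 171, 165 and 144 reads, and 12.2 in rnh201-null replicate 2. XII:460110 had 30.1, 5.74 and 2.66, from 250, 71 and 93 reads. XII:460077 had 24.7, 9.31 and 4.07, from 196, 110 and 136 reads. All 3 also had a value in rnh201-null replicate 2 and none in rnh203-K46W. No position of the stretch recurred between the rnh201-null libraries, of which replicate 2 had 24 and replicate 3 had 30 positions.

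Signal in the stretch leaned to the plus strand. Strand asymmetry, (P - M)/(P + M) with P and M the summed enrichment factors of the plus and minus strand, was 0.81, 0.16 and 0.72 in rnh203-K46W replicates 3 to 5. It was 0.71, 0.42 and 0.39 in rnh201-G42S and 0.61 and 1 in rnh201-null replicates 2 and 3. All 8 libraries with signal were above 0, whereas asymmetry in the rest of chrXII ranged from -0.20 to 0.05 over the 17 libraries. The lean of rnh203-K46W rested on XII:460385. Without it the asymmetries of the 3 libraries were -1, -0.13 and -0.21, and those of the other genotypes did not move.

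Tests over libraries did not separate the genotypes in the repeats. Repeat enrichment was the log2 of the level per base in the whole repeats over that in the rest of chrXII. All signal of the repeats lay in the 966 bp of the inter-repeat stretch, and the other bases of their 17357 counted as 0. These empty bases lower every value. Repeat enrichment averaged -5.11 ± 1.36 over 3 rnh203-K46W libraries, -6.28 ± 0.38 over 3 rnh201-G42S libraries and -6.97 ± 0.19 over 2 rnh201-null libraries (SD). The contrast of rnh203-K46W with rnh201-G42S was 1.18 (exact two-sided permutation p = 0.3, adjusted p = 0.3, smallest possible p 0.1). Those of rnh203-K46W and rnh201-G42S with rnh201-null were 1.86 and 0.69 (exact permutation p = 0.2 each, adjusted p = 0.3, smallest possible p 0.1). Without XII:460385 the first of these 3 contrasts was -0.81 and that of rnh203-K46W with rnh201-null was -0.12. At these sizes no p under 0.05 could be reached. Repeat strand asymmetry gave adjusted p = 0.8 in all 3 contrasts by the same exact test. Contrasts with WT have no value on the log2 scale, since all 6 WT libraries were at 0.

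The inner block of the right edge had the highest mean fold of the 4 stretches in every genotype. Its fold over the rest of chrXII was 11.1, 14.7, 2.19, 5.97 and 1.87 in rnh203-K46W, from 37, 5, 25, 515 and 50 reads. It was 0.0238, 17.6 and 3.40 in rnh201-G42S, from 1, 1119 and 621 reads, and 0, 1.36 and 8.32 in rnh201-null, from 0, 139 and 735 reads. In WT it was 0, 0, 0, 15.0, 13.8 and 11.6, from 0, 0, 0, 5, 6 and 22 reads. Of the 13 libraries with any read in the block, 12 were above the rest of chrXII, and the exception rested on 1 read. This count leaves out the libraries at 0, among them WT replicate 3 with 8770 nuclear reads, more than the 7124 of WT replicate 4. In a shallow library 1 read can be enough for a fold above 1. In the outer block 1 read gave 2.41 in WT replicate 3.

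The ranges of the 4 genotypes overlapped in the block, and replicates of 1 genotype lay far apart. Replicates 1 and 2 of rnh201-G42S, with 976237 and 1448915 nuclear reads, differed as 1 read to 1119. These libraries belong to different sets by their mitochondrial profiles, A and B. In rnh201-null the set B library was higher as well, whereas in rnh203-K46W the set B libraries, replicates 3 and 5, were the lowest of 5. Among all 12055 windows of 1 kb in the nuclear genome, the one that holds the block (XII:489001-490000) ranked 57 in rnh203-K46W, 28 in rnh201-G42S, 1362 in rnh201-null and 291 in WT by mean level.

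**Figure D3:**
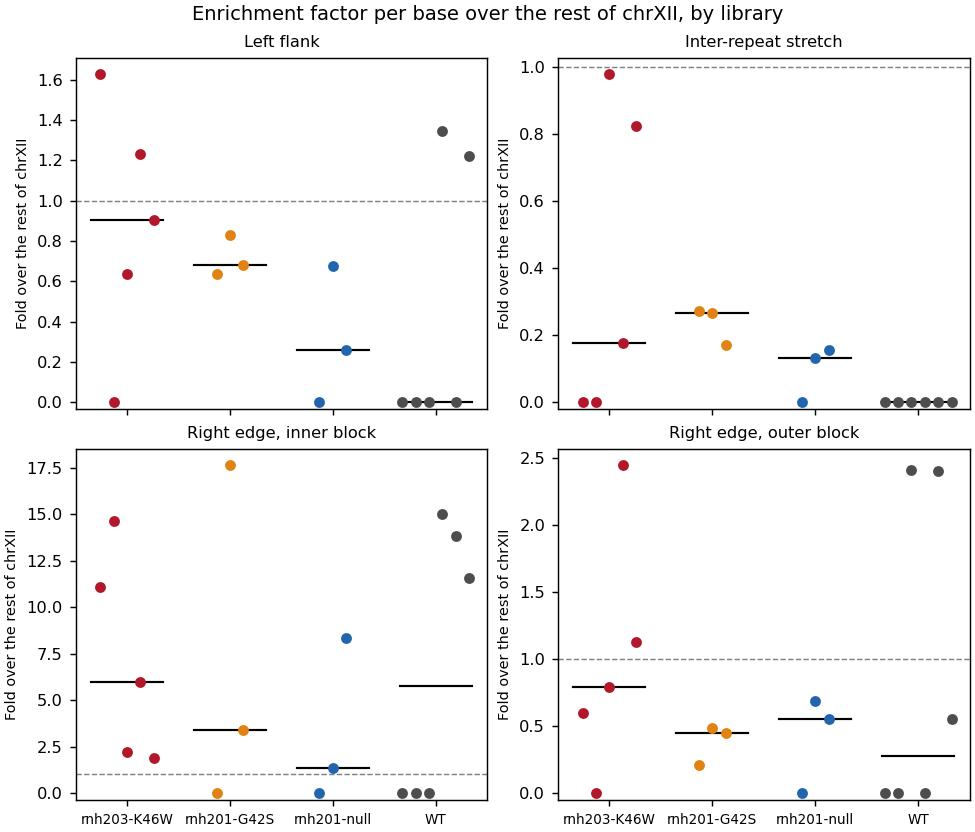
Fold of the enrichment factor per base over the rest of chrXII (vertical axis, own scale per panel) in each library, by genotype (horizontal axis), for the 4 stretches. Points are libraries, bars are medians and the dashed line marks 1. In the inner block 13 of 17 libraries have signal and 12 of these lie above 1, up to 17.6 in rnh201-G42S replicate 2. Libraries without signal lie at 0.

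Within the block the strands were filled in different places. Plus-strand reads gathered between 200 and 400 bp from the first position of the block. There lay 386 of 420 plus-strand reads in rnh203-K46W (91.9%), 1433 of 1509 in rnh201-G42S (95.0%), 589 of 670 in rnh201-null (87.9%) and 21 of 22 in WT (95.5%). All 13 libraries with a plus-strand read had over 50% of them there, with a range of 72.2% to 100% and a median of 93.3%.

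Minus-strand reads gathered in the first 200 bp. These bases held 186 of 212 in rnh203-K46W (87.7%), 171 of 232 in rnh201-G42S (73.7%), 63 of 204 in rnh201-null (30.9%) and 11 of 11 in WT (100%). In rnh201-null the minus-strand reads were spread over the block, with 33.8% in the middle and 35.3% in the last part. By library, 10 of 12 had over 50% of their minus-strand reads in the first 200 bp, and the exceptions were rnh201-null replicates 2 and 3 with 19.2% and 34.9%. The bounds of these parts were chosen after the profile was seen, and the difference between genotypes was not tested.

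**Figure D4:**
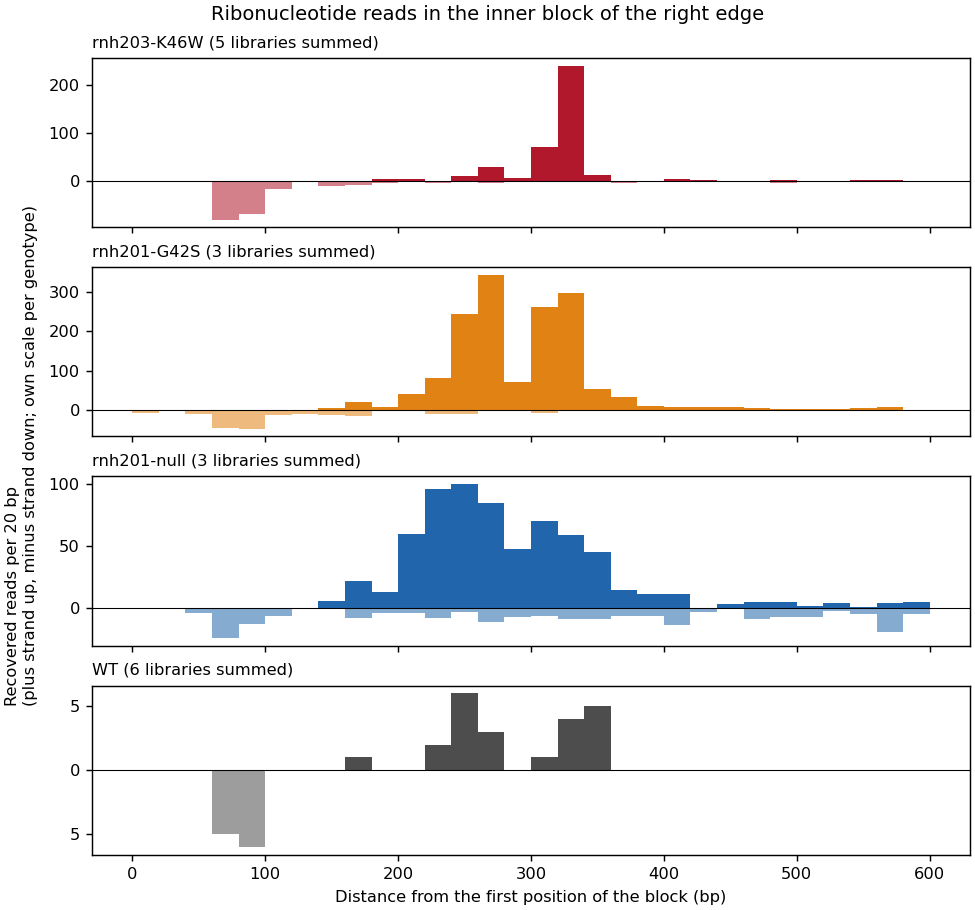
Recovered ribonucleotide reads per 20 bp (vertical axis, own scale per genotype, plus strand up, minus strand down), summed over the libraries of a genotype, against the distance from the first position of the inner block in bp. Plus-strand reads peak between 240 and 340 bp in all 4 genotypes, and the highest minus-strand bin lies between 60 and 100 bp in all 4.

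Single positions of the block recurred between genotypes. XII:489409 on the minus strand was the only flank position in 4 of the 5 rnh203-K46W libraries. Its enrichment factors there were 983, 1753, 0, 439 and 22.1, a mean of 639 ± 740 (SD, n = 5), from 6, 1, 0, 64 and 1 reads. The same position had 4 reads in rnh201-G42S replicate 3, 1 and 4 reads in rnh201-null replicates 2 and 3, and 2 reads in WT replicate 6. It and XII:489665 on the plus strand, seen in 8 libraries each, were the most widely shared members. XII:489665 had 2, 1 and 39 reads in rnh203-K46W replicates 1, 2 and 4, 2 reads each in rnh201-G42S replicates 2 and 3, 1 and 4 in rnh201-null replicates 2 and 3, and 1 in WT replicate 6.

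In rnh201-G42S the 3 flank positions with the highest means were XII:489600, XII:489641 and XII:489584, all on the plus strand of the block. XII:489600 had enrichment factors of 0, 958 and 62.4, a mean of 340 ± 536 (SD, n = 3), from 0, 76 and 14 reads. XII:489641 had 0, 570 and 56.4, and XII:489584 had 0, 458 and 22.5. Replicate 2 carried each of these means.

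In rnh201-null the 3 highest flank positions were XII:489562, XII:489572 and again XII:489600, also on the plus strand. Their enrichment factors in replicates 1 to 3 were 0, 6.85 and 170 at XII:489562, 0, 39.95 and 108 at XII:489572, and 0, 6.95 and 97.4 at XII:489600. XII:489562 had no value in the other 3 genotypes. Replicate 3 was the higher of the 2 deep libraries at all 3. No flank position recurred in WT.

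Strand asymmetry in the block was above 0 in all 13 libraries with signal. It was 0.24, 0.28, 0.44, 0.39 and 0.44 in rnh203-K46W, 1, 0.82 and 0.62 in rnh201-G42S, 0.35 and 0.61 in rnh201-null replicates 2 and 3, and 0.62, 0.03 and 0.39 in WT replicates 4 to 6. The value of 1 rests on 1 read. The left flank leaned the other way in most libraries. There 9 of 11 libraries were below 0, and the exceptions were rnh203-K46W replicates 3 and 5 at 0.09 and 0.22. The outer block was mixed, with 8 of 12 libraries below 0, among them all 3 of rnh201-G42S at -0.39, -0.32 and -0.44.

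**Figure D5:**
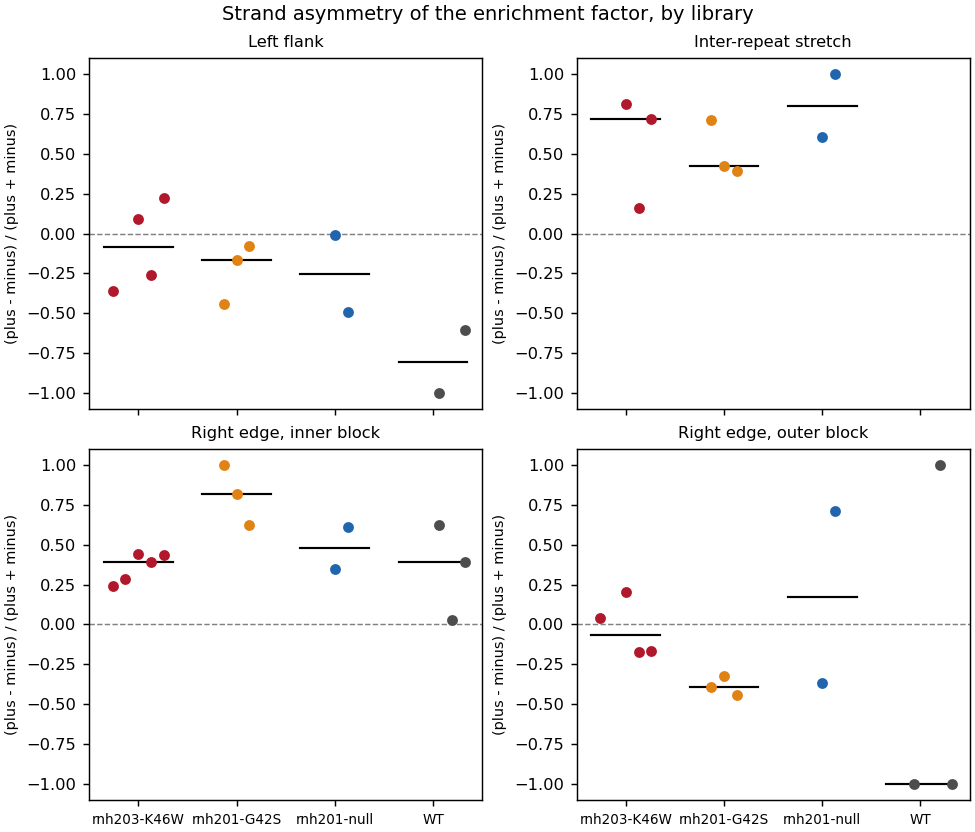
Strand asymmetry, from -1 (minus strand only) to 1 (plus strand only) on the vertical axis, in each library with signal, by genotype (horizontal axis), for the 4 stretches. Points are libraries, bars are medians and the dashed line marks 0. All 8 libraries in the inter-repeat stretch and all 13 in the inner block lie above 0, and 9 of 11 in the left flank lie below.

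The left flank was filled near or under the level of the rest of chrXII. Its fold was 1.63, 0, 0.634, 1.23 and 0.904 in rnh203-K46W, 0.636, 0.830 and 0.682 in rnh201-G42S, 0, 0.675 and 0.257 in rnh201-null, and 0, 0, 0, 1.35, 0 and 1.22 in WT. The 2 WT values rest on 1 and 5 reads. The outer block had 0.6, 0, 0.793, 2.45 and 1.13 in rnh203-K46W, 0.207, 0.485 and 0.449 in rnh201-G42S, 0, 0.686 and 0.553 in rnh201-null, and 0, 0, 2.41, 0, 2.41 and 0.553 in WT. Each of the 3 WT values above 0 is 1 read. A library without a read in the flanks has an upper limit set by 3 reads, a fold over all flanks of 0.945 in rnh201-null replicate 1 and of 1.54 and 2.15 in WT replicates 1 and 2.

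Over the flanks as a whole, most of whose bases had no value, no contrast passed the test. Flank enrichment, on the log2 scale used for the repeats, averaged -2.14 ± 0.86 over 5 rnh203-K46W libraries, -2.79 ± 1.77 over 3 rnh201-G42S libraries, -2.76 ± 0.98 over 2 rnh201-null libraries and -1.98 ± 1.43 over 4 WT libraries (SD). The libraries at 0 have no log2 value. The contrasts with WT were -0.16 for rnh203-K46W, -0.80 for rnh201-G42S and -0.78 for rnh201-null (exact two-sided permutation test, adjusted p = 1, 0.857 and 0.857). The smallest p the sizes allow was 0.00794 for rnh203-K46W, 0.0286 for rnh201-G42S and 0.0667 for rnh201-null. Those between mutants ranged from -0.03 to 0.64, with exact adjusted p from 0.857 to 1.

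Flank strand asymmetry averaged 0.19 ± 0.10 in rnh203-K46W, 0.20 ± 0.57 in rnh201-G42S, 0.30 ± 0.34 in rnh201-null and -0.09 ± 0.61 in WT. All 6 contrasts had an adjusted p of 0.929 by the exact permutation test. Over the 4 measures, 18 of 24 contrasts gave a test and none passed. Left without WT replicate 3, which has 1 flank read, the flank enrichment contrast of rnh203-K46W with WT was -0.87. It was 0.13 without WT replicate 4.

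A fit over 1-kb windows of the whole nuclear genome called no window of the region. Of its 41 windows, 5 passed the filter on low values, a mean of at least 0.1, and entered the limma fit on log2(value + 0.1). For rnh203-K46W minus WT the fit called 174 of 11562 windows (1.5%), all higher, and 0 of 5 in the region. The fit held no term for library series, and these genotypes share none. Without rnh203-K46W replicate 2, the library with 7264 nuclear reads, it called 2 region windows among 2026 in all, and without rnh201-null replicate 1 it called 1 among 1354. In the other 5 contrasts it called 0 windows anywhere (0%). Unadjusted p values under 0.05 were found at 2 region windows for rnh203-K46W minus WT and at 1 for rnh201-G42S minus WT, and at 3329 of 11562 windows (28.8%) overall for rnh203-K46W minus WT and 2346 (20.3%) for rnh201-G42S minus WT.

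The 3 region windows with the highest means came in the same order in all 4 genotypes. Levels of windows are given over the mean of all nuclear windows of the same library. The level of XII:489001-490000 averaged 4.73 ± 3.67 over the 5 rnh203-K46W libraries, 5.34 ± 7.15 over 3 of rnh201-G42S, 2.10 ± 2.92 over 3 of rnh201-null and 3.99 ± 4.41 over 6 of WT (SD). The log2 difference of this window from WT was 2.03 ± 1.27 in rnh203-K46W (SE, limma adjusted p = 0.263), 0.85 ± 1.48 in rnh201-G42S (limma adjusted p = 0.670) and -0.15 ± 1.48 in rnh201-null (limma adjusted p = 0.991). XII:450001-451000, in the left flank, averaged 1.097 ± 0.78 in rnh203-K46W, 1.18 ± 0.14 in rnh201-G42S, 0.420 ± 0.464 in rnh201-null and 0.622 ± 0.964 in WT. The last window, with the outer block, averaged 0.638 ± 0.589 in rnh203-K46W, 0.269 ± 0.111 in rnh201-G42S, 0.25 ± 0.220 in rnh201-null and 0.483 ± 0.634 in WT. The window with most of the inter-repeat stretch, XII:460001-461000, was 0 in all WT libraries and gave 1.57 ± 0.60 for rnh203-K46W minus WT (SE, limma adjusted p = 0.0873). The WT libraries may be at 0 there at levels that a deeper library would list. With WT at 0, this difference is measured against the added 0.1 alone. XII:451001-452000, also 0 in all WT libraries, gave 1.49 ± 0.57 in that contrast (SE, limma adjusted p = 0.0890). These were its region windows with an unadjusted limma p under 0.05.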

How the data were processed

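The members, stretches and lists were chosen with earlier results of these data known. Reads were trimmed with cutadapt and aligned to sacCer2 with Ribose-Map, per the submitters' processing notes and the labels of the series. The authors deposited a ratio, the normalized enrichment factor per position and strand, and its normalization is not given in the sources used here. The 2179 entries of the region were merged by position and strand.

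DNA depth and reads were recovered as whole numbers, in nuclear DNA for 99.5% to 100% of values within 0.02, and in the repeats within 0.002. On simulated positions, 98.8% of 150000 read numbers were recovered. For 200 high-copy positions, simulated without error at 2 libraries each, the true depth was among the solutions in 100%, as it must be. It was the only solution in 84.5%. Of the members in the inter-repeat stretch, 70.7% had a value in only 1 library. The choice by neighbouring positions among several solutions was not simulated. The 4 measures per library (enrichment and strand asymmetry of repeats and flanks) were tested by two-sided exact permutation over libraries, adjusted by Benjamini-Hochberg over 6 contrasts; a library without signal has no log2 value. Windows of 1000 bp were fitted with limma 3.58.1 in R 4.3.3 (trend, all 17 libraries, adjusted p under 0.05). In 11522 simulated windows at the real depths, rnh201-G42S minus WT recovered 2 of 40 windows raised 4-fold and 0 of 160 lowered 4-fold. At equal depth it recovered 40 of 40 and 160 of 160 among 11564 windows, with 10 other calls. The simulation held counting error alone. Other spread between libraries was left out, so recovery with that spread is not known. Named positions are the 3 highest means per genotype among those in at least 2 libraries (all but 1 of 5 or 6). The 4 DNA-sequencing samples have no column in the table. Alternatives are given in the closing section.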

Additional observations from a re-analysis of the deposited data

Results flagged for a closer look

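WT replicate 3 stood far from the other 3 WT libraries with a value in both flank measures. Its flank enrichment was -4.12 on the log2 scale, against -1.40 to -1.12 in the others, and its flank strand asymmetry was -1, against 0.15 to 0.34. Both values rest on 1 read, on the minus strand of the outer block. Of 14 groups of 4 to 6 libraries looked at in this way these were 2, and chance marks about 1 group in 20.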

How the results depend on the processing

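No contrast of the 4 measures passed the exact permutation test under the alternatives run. K, G and N stand for rnh203-K46W, rnh201-G42S and rnh201-null. The lowest adjusted p was 0.0714, for repeat enrichment of G minus WT on a linear fold, and 0.286 with 1 library left out. The direction of most contrasts was not stable, and apart from the removal of XII:460385 the cause was not tested. No paired analysis was possible because the replicate numbers only follow the order of the deposit. With each position counted once, repeat enrichment was -0.96 and repeat asymmetry -0.59 for K minus G, and flank asymmetry was 0.0526 for K minus N and 0.19 for K minus G. With the highest position of each library left out, K minus G was -0.70 in repeat enrichment and -0.92 in repeat asymmetry. Against all other nuclear DNA, flank enrichment was 0.0353 for K minus WT and 0.19 for G minus N. The linear fold, the removal of XII:460385 and the sets A and B were chosen after seeing the data. On a linear fold with libraries at 0 kept, repeat enrichment of G minus WT was 0.0131 (exact permutation p = 0.0119, the smallest these sizes allow). All 3 rnh201-G42S libraries were above 0 and all 6 WT libraries at 0. With so few reads the WT libraries may be at 0 there at levels that a deeper library would list, so this p cannot tell genotype from depth. Flank contrasts on the linear fold were 0.0399 (K minus WT), 0.0122 (G minus WT) and 0.120 (G minus N). Without XII:460385, repeat enrichment was -0.12 (K minus N) and -0.81 (K minus G), and repeat asymmetry -0.96 (K minus G). Within set A, repeat enrichment was 0.43 (K minus N) and -0.29 (K minus G), flank enrichment 1.23 (K minus WT), repeat asymmetry -0.40 (K minus G), and flank asymmetry 0.10 (K minus N) and 0.20 (K minus G). Within set B, flank enrichment was -1.85 (K minus WT), 0.23 (G minus WT), 1.09 (G minus N), -0.995 (K minus N) and -2.08 (K minus G). Repeat asymmetry was -0.58 (G minus N) there, and flank asymmetry -4.65e-05 (K minus WT) and 0.15 (G minus N). Within the library series numbered in the 300s, repeat enrichment was 0.12 (G minus N), flank enrichment -0.0800 (K minus N) and repeat asymmetry -0.61 (G minus N). Leaving out 1 library at a time gave flank enrichment of -0.87 to 0.13 (K minus WT), -0.0800 to 1.31 (K minus N), -0.22 to 1.54 (K minus G), -1.71 to 0.0636 (G minus WT) and -0.93 to 0.84 (G minus N). It gave repeat asymmetry of -0.0703 to 0.26 (K minus G) and flank asymmetry of -0.0237 to 0.42 (K minus WT), -0.35 to 0.13 (K minus N), -0.32 to 0.24 (K minus G), -0.0155 to 0.60 (G minus WT) and -0.35 to 0.21 (G minus N). Repeat enrichment kept its direction in all 16 such values. For K minus WT the limma fit called 2 region windows with no filter on low windows (568 called in all), 2 with library quality weights (4832 in all) and 0 to 2 when 1 library was left out. For K minus N it called 1 with quality weights (133 in all). The WT libraries, with at most 38576 nuclear reads, limit every contrast with WT. Those of K with WT are also limited by library series, of which these genotypes share none.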
